A study of Mus musculus with 22 samples.

Results

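Transforming growth factor beta is secreted in a latent complex and, once released, binds a type II receptor. That receptor recruits and phosphorylates a type I receptor, which in turn phosphorylates SMAD transcription factors. In the lung this pathway drives fibroblasts to make matrix. Platelet-derived growth factors, insulin-like growth factor 1, heparin-binding EGF-like growth factor and the IL-6 family cytokine oncostatin M are further signals to which fibroblasts respond. Macrophages and monocytes can make both kinds of signal, so the 2 cell types were compared as sources of them. The genes examined were the ligands Tgfb1, Pdgfa, Pdgfb, Pdgfc, Igf1, Hbegf and Osm, the receptors Tgfbr1 and Tgfbr2, and Tgfbi, a secreted matrix protein named for its induction by TGF-beta. They were taken from a list by matching Ensembl identifiers to mouse symbols, and a gene had to be present in both tables of counts. All 10 listed genes met that rule, out of 31116 genes present in both tables, 55421 in the monocyte table and 31134 in the macrophage table. All 10 also passed the filter on low counts in the main fits. Under some alternatives Pdgfc or Pdgfa had no result, such as Pdgfc in monocytes at 3 d against control (17 alternatives, beside 19 for Tgfb1).

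RNA was sequenced from cells sorted from the lungs of 8 to 12 week old C57BL/6 mice of both sexes, all labelled with the genotype SP-CI73T mutant, a mutant surfactant protein C that the alveolar epithelium makes. Tamoxifen, given once by mouth, activates a Flp-O recombinase at the Rosa26 locus that removes a neomycin cassette and raises the mutant protein. Mice labelled tamoxifen were sampled 3 d (initiation of injury) and 14 d (peak injury) later, and controls are labelled untreated. The paper's methods pool as controls mutants given tamoxifen without Flp-O and Flp-O carriers given oil, while its results call the controls of the sequenced monocytes oil treated. For the macrophage controls, which the paper does not report, the treatment is not stated. After lavage and collagenase digestion, alveolar macrophages were sorted as SigF+CD11b- cells (4 control, 3 at 3 d and 3 at 14 d) and monocytes as Ly6Chi cells (4, 4 and 4). Each sample is 1 library, and nothing in the sources used here says how many animals went into it, so the p-values measure the spread between these samples.

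Total counts per library ran from 15451460 to 28789639 in monocytes and from 4610720 to 17074863 in macrophages, with the macrophage 14 d libraries lowest (4610720 to 6838893). A count of 3, taken as the smallest signal, was worth 0.121 to 0.161 CPM (counts scaled to library depth) for monocyte libraries, and for macrophage libraries 0.197 to 0.507. Floors and counts cover counting error only. Sex differed by time point. Xist, which female cells transcribe, had counts of 960 to 4260 in control, 552 to 1217 in 3 d and 1 to 6 in 14 d monocytes. By contrast 4 Y-linked genes summed to 1 to 3, 0 to 2 and 1949 to 3033. In macrophages Xist counts were 2744 to 4444, 1747 to 2597 and 8 to 32, and the Y-linked sums 0 to 3, 2 to 3 and 433 to 966. Sex and the 14 d time point therefore cannot be told apart in either cell type. Each cell type was also counted in a table of its own, so cell type and processing run cannot be told apart.

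The monocyte 3 d and macrophage 14 d libraries stood apart from the others in their background. Olfactory and vomeronasal receptor genes, taken here as a measure of background, summed to 875 to 1410 CPM in the monocyte 3 d libraries, against 23.1 to 166 in controls and 23.1 to 236 at 14 d. In macrophages they summed to 682 to 1260 CPM at 14 d, against 16.9 to 144 in controls and 23.4 to 108 at 3 d (1972 such genes are in the monocyte table and 841 in the macrophage table). The number of genes with a count was 40119 to 41134 in the monocyte 3 d libraries and 24775 to 32492 in the other monocyte libraries. Since whole groups were affected, no comparison could be made within them without these libraries, and the part of this background in the results was not tested. It bears on scaling. TMM scaling, used throughout unless stated, gave median log2 fold changes over all genes tested of 0.22 for monocytes at 3 d and 0.175 for macrophages at 14 d against control. Relative to plain library size, TMM moved all log2 fold changes by -0.49 and -0.44 in those comparisons. The shift was 0.38 and -0.43 for 14 d against 3 d in monocytes and macrophages, and -0.11 and -0.01 for monocytes at 14 d and macrophages at 3 d. It was -0.43, -0.13 and -1.1 for macrophages against monocytes at control, 3 d and 14 d. For the difference between the cell types in their 3 d and 14 d responses the shifts were 0.3 and -0.67.

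**Figure D1:**
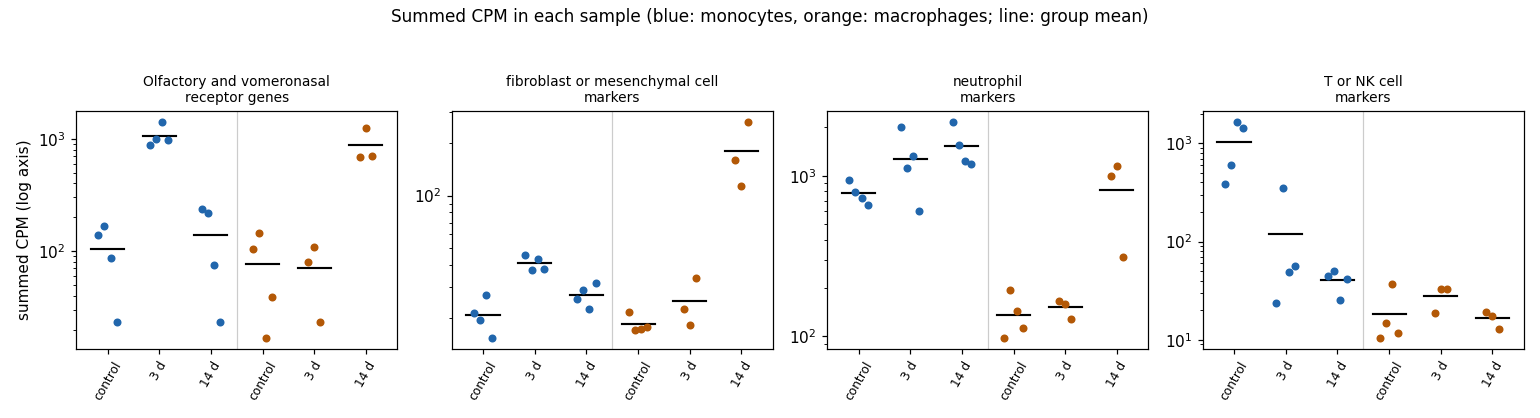
Summed CPM on log axes in each of the 22 samples, with points for samples (blue for monocytes, orange for macrophages) and a line for the group mean. Receptor genes, in CPM of library size, stood at 875 or more in every monocyte 3 d library and 682 or more in every macrophage 14 d library, and fibroblast markers, on the joint scale, at 113 or more in every macrophage 14 d library.

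The labels were checked against markers, with CPM on 1 joint scale over all 22 samples. All 12 alveolar macrophage markers (such as Siglecf and Marco) were called higher in macrophages than in monocytes at control and at 3 d. At 14 d 8 of 12 were, beside 24.5%, 20.4% and 40.4% of all genes at control, 3 d and 14 d. Chil3 was the most abundant of the 12 in both cell types, at a mean of 20800 CPM in control macrophages and 11600 in control monocytes. Of 9 classical monocyte markers, 8 were lower in macrophages at control and at 3 d, and 9 at 14 d (19.7%, 42.7% and 23.3% of all genes). These markers summed to 11700 to 19300 CPM in control monocytes and 1160 to 2010 in control macrophages. In macrophages at 14 d, 9 of 12 alveolar macrophage markers were called lower than in controls (22.9% of all genes) and 0 higher. Of 10 markers of interstitial or monocyte-derived macrophages, 8 were higher (39.4% of all genes) and 1 lower (most abundant gene Apoe, mean 514 CPM). In the same comparison 6 of 9 classical monocyte markers were higher and 0 lower. Of the 10 interstitial markers, 8 were also higher in monocytes at 14 d than in controls and 1 lower (3.22% and 5.34% of all genes). In monocytes at 3 d, 7 of 12 alveolar macrophage markers and 3 of 10 interstitial ones were lower than in controls and 0 higher. Of all genes 14.4% were lower and 36.8% higher. The interstitial sum averaged 6400 CPM in controls, 1420 at 3 d and 8180 at 14 d. From 3 d to 14 d 9 of 10 interstitial and 5 of 12 alveolar macrophage markers were higher in monocytes and 0 lower. Over all genes 12% were higher and 34.5% lower. The part of these markers in the monocyte results was not tested.

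Markers of other cells moved as well, although by the methods red blood cells were lysed and monocytes were gated among single viable cells bearing CD45. The monocyte sort also excluded resident alveolar macrophages, eosinophils and cells bearing Ly6G or CD3. Fibroblast or mesenchymal markers summed to 160, 113 and 263 CPM in the macrophage 14 d libraries, against 21.7, 17, 17.2 and 17.7 in controls and 22.4, 18.3 and 33.8 at 3 d. All 8 of 8 were called higher at 14 d than in controls (39.4% of all genes), with Col3a1 the most abundant (mean 131 CPM). In monocytes they summed to 37.3 to 45.5 CPM at 3 d and 15.4 to 27 in controls. Of 7 tested 3 were higher and 0 lower, beside 36.8% and 14.4% of all genes. In the macrophage 14 d libraries neutrophil markers summed to 1000, 1150 and 311 CPM, against 98.1, 194, 143 and 112 in macrophage controls. Of 7 tested 6 were called higher and 1 lower (39.4% and 22.9% of all genes), with S100a9 the most abundant. Eosinophil markers in the macrophage 14 d libraries summed to 72.3, 19.5 and 78.4 CPM, against at most 1.59 in macrophage controls. Of these markers 4 of 4 were called higher (39.4% of all genes), with Prg2 the most abundant. In monocytes, T or NK cell markers summed to 388, 600, 1650 and 1450 CPM in controls, 23.6, 350, 48.8 and 56.5 at 3 d and 44.7, 49.7, 25.2 and 41.6 at 14 d. Of these markers 7 of 9 were lower at 3 d and 5 of 9 at 14 d (14.4% and 5.34% of all genes), with Gzma the most abundant. B cell markers (5 of 5) were lower in monocytes at both times, beside the same shares of all genes. The mean sum of B cell markers was 630 CPM in controls, 381 at 3 d and 327 at 14 d. Neutrophil markers in monocytes had mean sums of 780, 1260 and 1530 CPM, with 3 of 9 higher and 1 lower at 3 d (36.8% and 14.4% of all genes). Epx, an eosinophil marker, was the 1 listed marker at 0 in a whole group, in monocytes at 14 d.

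Platelet markers had mean sums of 22.1, 36.9 and 106 CPM in control, 3 d and 14 d monocytes and 5.62, 11.1 and 15.7 in macrophages. Pf4 alone had a mean of 96.5 CPM in monocytes at 14 d. There 1 of 8 platelet markers was called higher than in controls and 2 lower (3.22% and 5.34% of all genes). In macrophages at 14 d 3 of 4 tested were higher (39.4% of all genes). Dendritic cell markers had means of 334, 98.8 and 168 CPM in monocytes and 10.5, 18 and 21.6 in macrophages. In macrophages 3 of 5 were called higher at 14 d than in controls (39.4% of all genes). Means of red blood cell markers were 1760, 140 and 46.7 CPM in monocytes and 292, 43.5 and 63.5 in macrophages. Single samples carried much of these means, with ranges of 241 to 4820, 15.1 to 469 and 4.13 to 114 CPM in monocytes. In macrophages the ranges were 36.1 to 714, 5.53 to 106 and 29.5 to 130. In monocytes 5 of 5 red blood cell markers were lower at 3 d and 3 of 5 at 14 d (14.4% and 5.34% of all genes). For epithelial markers the means were 510, 295 and 475 CPM in monocytes and 164, 506 and 130 in macrophages, where Scgb1a1 reached a mean of 389 at 3 d. Endothelial markers had means of 39.1, 53.1 and 26.9 CPM in monocytes and 109, 105 and 63.7 in macrophages, where Vwf made up most of the control sum (mean 96.8). At 14 d 4 of 6 endothelial markers were called higher in macrophages than in controls and 1 lower (39.4% and 22.9% of all genes). In bulk samples of sorted cells, fewer cells of a type and less RNA per cell cannot be told apart, and the part of these other cells in any result given here was not tested.

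A gene was called when the edgeR quasi-likelihood test gave a Benjamini-Hochberg adjusted p under 0.05 and the fold was above 1.5. Monocytes at 3 d against control had 7 of 10 members called. Pdgfa, Igf1 and Hbegf rose (36.8% of the 22353 genes tested were called higher) and Tgfbr1, Tgfbr2, Pdgfb and Pdgfc fell (14.4% were called lower). At 14 d against control 5 were called, with Tgfbi, Pdgfa, Igf1 and Hbegf higher (3.22% of genes) and Tgfbr2 lower (5.34%). Between 3 d and 14 d, 7 members were called in monocytes and each was higher at 14 d, namely Tgfb1, Tgfbr1, Tgfbr2, Tgfbi, Pdgfa, Pdgfc and Igf1 (12% of genes were called higher and 34.5% lower). The 3 comparisons share samples and are not independent, and the same holds for those in macrophages and those between the cell types. The members' median log2 fold changes were -0.5, 0.8 and 1.16, beside 0.22, 0.09 and -0.26 over all genes tested.

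In macrophages no member was called at 3 d against control by the edgeR quasi-likelihood test (1.05% of the 20944 genes tested were called higher and 0.224% lower), although 5 had an unadjusted p under 0.05 and DESeq2 called 1, Hbegf. Without macrophage 3 d replicate 2, 4 members were called: Hbegf (log2 fold change 3.55), Tgfbr1 (-0.68), Tgfbr2 (-0.63) and Pdgfc (-0.88). By 14 d 8 members were called against control, with Pdgfa, Igf1 and Hbegf higher (39.4% of genes) and Tgfb1, Tgfbr1, Tgfbr2, Pdgfc and Osm lower (22.9%). From 3 d to 14 d Pdgfa was higher (36.3%), and Tgfbr1, Tgfbr2 and Osm were lower (20%). That count of 4 became 7 without macrophage 3 d replicate 3, since Pdgfc (-0.6), Hbegf (2.09) and Tgfbi (-0.72) were then called. The members' medians were 0.2, -0.42 and -0.29, beside -0.01, 0.175 and 0.16 over all genes.

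Between the cell types, 7 of 10 members were called at control. Tgfb1, Tgfbr1, Tgfbr2, Pdgfc and Igf1 were higher in macrophages (24.5% of the 26692 genes tested) and Pdgfb and Hbegf higher in monocytes (19.7%). At 3 d the same 5 were higher in macrophages (20.4%) and Hbegf was higher in monocytes (42.7%). At 14 d Tgfb1 and Pdgfc were higher in macrophages (40.4%), whereas Tgfbi, Hbegf and Osm were higher in monocytes (23.3%). With library size in place of TMM the 14 d count was 8, because Tgfbr1 (0.82), Tgfbr2 (1.36) and Pdgfb (2.06) were then called higher in macrophages, and Tgfbr1 had changed sign from -0.29. In the response to injury at 3 d, 3 members differed between the cell types, Tgfbr1, Tgfbr2 and Pdgfb, each with a more positive log2 fold change in macrophages (3.51% of genes, against 15.2% more negative). That count of 3 became 0 with the block by description number, and 1 with the stricter filter, with TMM factors from abundant genes, or without monocyte 3 d replicate 3, macrophage control replicate 2 or macrophage 3 d replicate 2. At 14 d 7 differed, with Pdgfb more positive in macrophages (16.9%) and Tgfbr1, Tgfbr2, Tgfbi, Pdgfc, Igf1 and Osm more negative (19.9%), and the count became 4 with library size, with the stricter filter and with TMM factors from abundant genes. The members' medians were 0.91, 1.58 and -0.45 for the cell types at control, 3 d and 14 d and 0.31 and -1.48 for the 2 response differences, beside 0.05, -0.8, 0.97, -0.63 and 0.48 over all genes.

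The share of called genes that were higher also moved with the scaling. Of all genes called, 71.8% were higher in monocytes at 3 d than in controls, and 95.1% under library size. For 14 d against control in monocytes the shares were 37.6% and 48.6%, and for 14 d against 3 d 25.8% and 5.77%. In macrophages 63.3% were higher at 14 d than in controls and 84.5% under library size, and 64.5% and 87.5% against 3 d. Between the cell types the shares higher in macrophages were 55.5% and 71.2% at control and 63.4% and 87.6% at 14 d. For the response differences they were 18.7% and 7.19% at 3 d and 45.9% and 81.5% at 14 d. Which scaling is nearer the truth was not tested. The filter moved the number of called genes too, from 11438 of 22353 tested to 1468 of 11063 under the stricter filter for monocytes at 3 d, where 977 were higher.

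**Figure D2:**
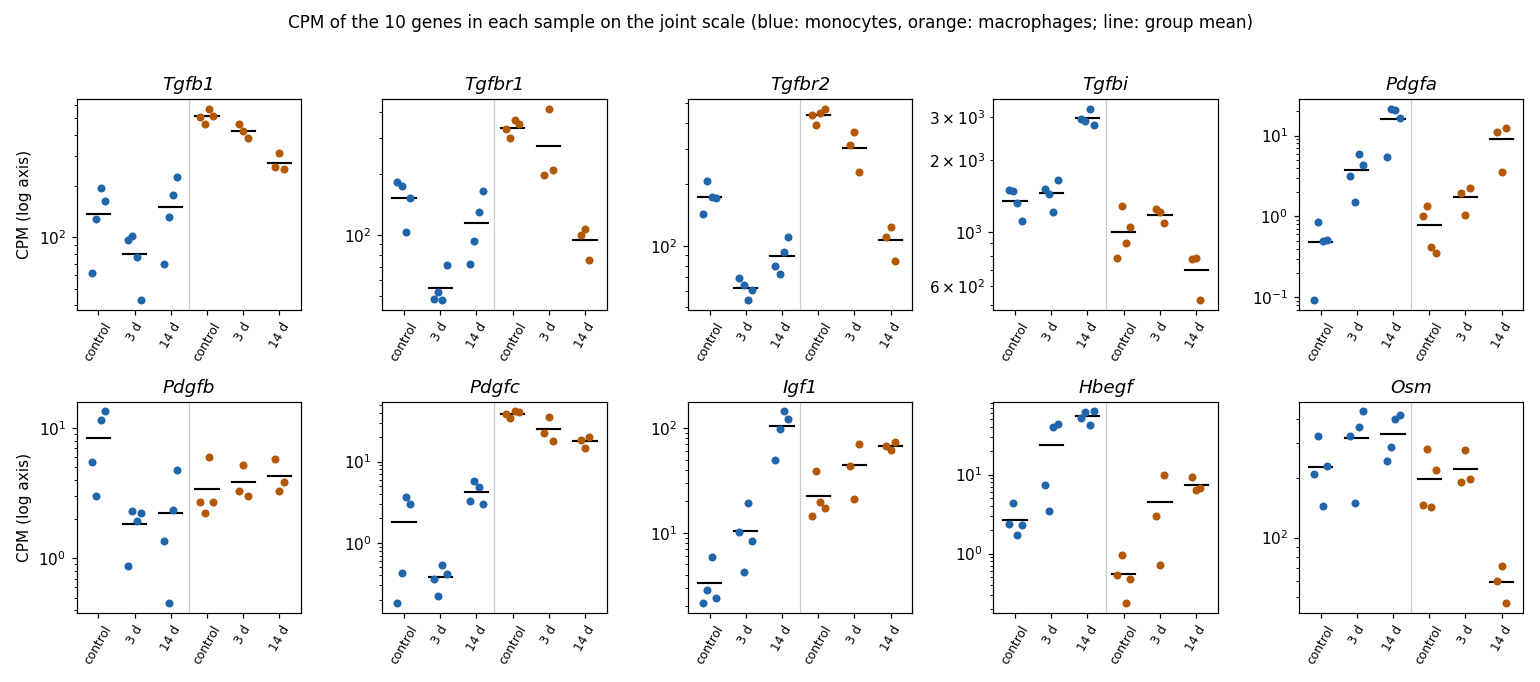
CPM of the 10 genes on the joint scale and log axes in the 6 groups, with a point per sample (blue for monocytes, orange for macrophages) and a line at the group mean. Tgfb1 stood at 252 CPM or more in every macrophage sample and at 225 or less in every monocyte sample, and Hbegf at 42.8 or more in every monocyte 14 d sample.

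Per kilobase of exon, the scale on which genes can be set beside each other, the ligands covered a wide range. In control macrophages the mean ± SD (n = 4) was 102 ± 8.75 CPM per kb for Tgfb1, 86.8 ± 29.4 for Osm, 7.58 ± 0.656 for Pdgfc and 2.28 ± 1.1 for Igf1. Pdgfb, Pdgfa and Hbegf stood at 0.82 ± 0.418, 0.249 ± 0.152 and 0.114 ± 0.062 CPM per kb there. In monocytes at 14 d Osm was at 148 ± 36.5 CPM per kb (n = 4) and Tgfb1 at 29.8 ± 13.1, followed by Hbegf at 11.3 ± 1.94, Igf1 at 10.4 ± 4.08, Pdgfa at 5.15 ± 2.37, Pdgfc at 0.831 ± 0.254 and Pdgfb at 0.535 ± 0.443. Tgfbi exceeded every ligand in every group, with 789 ± 54.8 CPM per kb in monocytes at 14 d and 185 ± 39.7 (n = 3) in macrophages at 14 d. The receptors Tgfbr1 and Tgfbr2 lay at 51.5 ± 4.32 and 53.3 ± 4.14 CPM per kb in control macrophages and 23.4 ± 5.38 and 21.3 ± 3.32 in control monocytes.

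Tgfb1 (ENSMUSG00000002603, chr7:25687002-25705077 of GRCm38, + strand) encodes the TGF-beta isoform most studied in lung fibrosis. Tgfb1 CPM in macrophages was 598, 550, 628 and 582 in controls, 531, 495 and 444 at 3 d, and 361, 457 and 344 at 14 d. In monocytes Tgfb1 stood at 55.7, 114, 175 and 142 in controls, 76.3, 81.6, 62.4 and 33.6 at 3 d, and 58.9, 113, 153 and 193 at 14 d. The 3 macrophage groups overlapped between 3 d and 14 d, where 457 exceeded 444, and every injured macrophage sample lay below every control, whereas all monocyte groups overlapped. On the joint scale the order ran from control macrophages (516 ± 44.1 CPM) through macrophages at 3 d (422 ± 37.5) and 14 d (275 ± 33.9) to monocytes at 14 d (150 ± 66.1), control (137 ± 57.2) and 3 d (79.7 ± 26.9). The 3 monocyte groups overlapped one another.

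Macrophages exceeded monocytes in Tgfb1 by a log2 difference of 1.91 ± 0.33 (SE) at control, with every macrophage sample above every monocyte sample (edgeR quasi-likelihood test, Benjamini-Hochberg adjusted p = 4.71e-05). At 3 d the difference was 2.4 ± 0.35 (edgeR quasi-likelihood test, Benjamini-Hochberg adjusted p = 7.62e-06), again without overlap. At 14 d it was 0.87 ± 0.34 (edgeR quasi-likelihood test, Benjamini-Hochberg adjusted p = 0.0307), and the groups did not overlap. The call was lost without macrophage 14 d replicate 1, 2 or 3 or monocyte 14 d replicate 1 or 2 (log2 0.63 to 0.91), while TMM factors from abundant genes gave 2. Within macrophages Tgfb1 fell by 0.61 on the log2 scale at 14 d (edgeR quasi-likelihood test, Benjamini-Hochberg adjusted p = 0.00136, all 3 samples below all 4 controls). That fall was not called under library size (-0.17), DESeq2 (-0.44), the stricter filter (-0.23), TMM from abundant genes (-0.06), a fit of the 2 groups alone (-0.55) or without macrophage control replicate 3 (-0.57). Monocyte Tgfb1 at 3 d had a log2 fold change of -0.94 ± 0.39 that was not called (edgeR quasi-likelihood test, Benjamini-Hochberg adjusted p = 0.0568, 1 of 4 samples below every control), although a fit of the 2 groups alone (-0.87) and fits without monocyte control replicate 1 (-1.22) or monocyte 14 d replicate 1 (-0.98) called it.

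Monocyte Tgfb1 was higher at 14 d than at 3 d by 1.03 ± 0.39 log2 units (edgeR quasi-likelihood test, Benjamini-Hochberg adjusted p = 0.0437), with 3 of 4 samples above every 3 d sample. That call was lost under library size (0.63), under the stricter filter (0.63), with no filter (1.19), with TMM factors from abundant genes (0.55) and under the replicate block (0.87). It was also lost without monocyte 14 d replicate 2, 3 or 4, monocyte 3 d replicate 1, 3 or 4, or monocyte control replicate 4 (0.72 to 1.09). The 14 d response of Tgfb1 did not differ between the cell types beyond the threshold (log2 difference -1.04 ± 0.47, edgeR quasi-likelihood test, Benjamini-Hochberg adjusted p = 0.0865), but did with no filter (-1.01), with the block by description number (-1.35) and without monocyte 14 d replicate 1 (-1.27) or monocyte control replicate 3 (-1.25).

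Tgfbr1 (ENSMUSG00000007613, chr4:47353222-47414931, + strand) encodes the type I receptor kinase and Tgfbr2 (ENSMUSG00000032440, chr9:116084293-116175360, - strand) the type II receptor. Tgfbr1 CPM in monocytes was 164, 153, 92.9 and 131 in controls, 38.4, 41.8, 38.6 and 56.4 at 3 d, and 60.6, 81.4, 113 and 141 at 14 d. Tgfbr2 CPM in monocytes was 129, 184, 157 and 148 in controls, 55, 51.5, 43.6 and 47.7 at 3 d, and 67.3, 63.2, 80.4 and 95.7 at 14 d. For both receptors every 3 d monocyte sample lay below every control and every 14 d sample, and for Tgfbr2 the 14 d samples lay below the controls as well. Tgfbr1 CPM in macrophages was 385, 358, 404 and 392 in controls, 227, 492 and 240 at 3 d, and 140, 156 and 103 at 14 d. Tgfbr2 CPM in macrophages was 510, 465, 493 and 529 in controls, 361, 427 and 265 at 3 d, and 155, 180 and 115 at 14 d. All macrophage 14 d values were below all others for both receptors, and at 3 d replicate 2 was the highest macrophage sample for Tgfbr1 and the highest of its group for Tgfbr2.

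Monocyte Tgfbr1 fell at 3 d by 1.63 ± 0.25 log2 units (edgeR quasi-likelihood test, Benjamini-Hochberg adjusted p = 0.000601) and Tgfbr2 fell by 1.64 ± 0.16 (edgeR quasi-likelihood test, Benjamini-Hochberg adjusted p = 0.000138), in 4 of 4 samples each. At 14 d Tgfbr2 was still lower than in controls, a log2 fold change of -1.01 ± 0.16 (edgeR quasi-likelihood test, Benjamini-Hochberg adjusted p = 0.00105), and Tgfbr1 was not called (-0.45 ± 0.25, edgeR quasi-likelihood test, Benjamini-Hochberg adjusted p = 0.311). The rise of Tgfbr1 from 3 d to 14 d was 1.18 ± 0.25 log2 units (edgeR quasi-likelihood test, Benjamini-Hochberg adjusted p = 0.00306, no overlap). For Tgfbr2 it was 0.63 ± 0.16 (edgeR quasi-likelihood test, Benjamini-Hochberg adjusted p = 0.00708, no overlap), a call lost under DESeq2 (0.49), library size (0.24), the stricter filter (0.24) and TMM factors from abundant genes (0.16), and without monocyte 14 d replicate 4 (0.46) or monocyte 3 d replicate 3 (0.5).

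Macrophage Tgfbr1 fell at 14 d by 1.53 ± 0.24 log2 units (edgeR quasi-likelihood test, Benjamini-Hochberg adjusted p = 9.67e-05) and Tgfbr2 fell by 1.73 ± 0.18 (edgeR quasi-likelihood test, Benjamini-Hochberg adjusted p = 3.28e-06), in 3 of 3 samples each. Against 3 d, Tgfbr1 differed by -1.27 ± 0.25 and Tgfbr2 by -1.22 ± 0.19 (edgeR quasi-likelihood test, Benjamini-Hochberg adjusted p = 0.000864 and 0.000153), and no samples overlapped. Between the cell types, macrophages were higher in Tgfbr1 by 1.14 ± 0.25 at control and 2.31 ± 0.27 at 3 d (edgeR quasi-likelihood test, Benjamini-Hochberg adjusted p = 0.000368 and 9.37e-08), without overlap. Tgfbr2 was higher in macrophages by 1.32 ± 0.17 and 2.28 ± 0.18 (edgeR quasi-likelihood test, Benjamini-Hochberg adjusted p = 2.84e-07 and 1.42e-10), also without overlap. By 14 d neither receptor was called, with log2 differences of -0.29 ± 0.26 for Tgfbr1 and 0.26 ± 0.18 for Tgfbr2 (edgeR quasi-likelihood test, Benjamini-Hochberg adjusted p = 0.339 and 0.211), on joint means of 94.3 ± 16.4 against 115 ± 40.9 CPM and 107 ± 20.2 against 89.2 ± 16.9 CPM. That outcome moved with the scaling. Library size and TMM factors from abundant genes called both higher in macrophages (0.82 and 0.84 for Tgfbr1, 1.36 and 1.37 for Tgfbr2). DESeq2 (0.63), the stricter filter (0.92) and the fit without monocyte 14 d replicate 4 (0.6) also called Tgfbr2.

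The response of the receptors to injury differed between the cell types in opposite directions at the 2 times. Monocytes at 3 d and macrophages at 14 d were also the groups with the highest olfactory and vomeronasal receptor gene background. The part of that background in these differences was not tested. At 3 d the macrophage log2 fold change exceeded that of monocytes by 1.17 ± 0.36 for Tgfbr1 (edgeR quasi-likelihood test, Benjamini-Hochberg adjusted p = 0.0256) and by 0.95 ± 0.24 for Tgfbr2 (edgeR quasi-likelihood test, Benjamini-Hochberg adjusted p = 0.0113). Tgfbr1 lost this call without monocyte 3 d replicate 3 (1.11), macrophage control replicate 2 (1.12) or macrophage 3 d replicate 2 (0.86), and under library size (0.9), the stricter filter (1), TMM factors from abundant genes (0.87) and the block by description number (1.01), and that block also removed the Tgfbr2 call (0.86). At 14 d the macrophage change was the more negative, by -1.43 ± 0.36 for Tgfbr1 (edgeR quasi-likelihood test, Benjamini-Hochberg adjusted p = 0.00386) and -1.07 ± 0.25 for Tgfbr2 (edgeR quasi-likelihood test, Benjamini-Hochberg adjusted p = 0.00181), and neither was called under library size (-0.75 and -0.4), the stricter filter (-0.81 and -0.46) or TMM factors from abundant genes (-0.63 and -0.28).

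Tgfbi (ENSMUSG00000035493, chr13:56609523-56639562, + strand) is the TGF-beta target among the members. Tgfbi CPM in monocytes was 1350, 1300, 1190 and 970 in controls, 1200, 1160, 985 and 1300 at 3 d, and 2490, 2510, 2820 and 2390 at 14 d. All 4 monocyte 14 d samples were above every other monocyte sample, and controls and 3 d overlapped. Tgfbi CPM in macrophages was 913, 1540, 994 and 1180 in controls, 1440, 1430 and 1250 at 3 d, and 1090, 1140 and 715 at 14 d. The macrophage 14 d samples overlapped the controls and lay below the 3 d samples.

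Monocyte Tgfbi rose at 14 d by 1.08 ± 0.13 log2 units over control (edgeR quasi-likelihood test, Benjamini-Hochberg adjusted p = 0.000129) and by 1.14 ± 0.13 over 3 d (edgeR quasi-likelihood test, Benjamini-Hochberg adjusted p = 0.000208), in 4 of 4 samples. At 3 d the log2 fold change was -0.05 ± 0.13 (edgeR quasi-likelihood test, Benjamini-Hochberg adjusted p = 0.75). In macrophages Tgfbi was not called at 3 d (0.25 ± 0.19), at 14 d (-0.24 ± 0.2) or between the times (-0.48 ± 0.21, edgeR quasi-likelihood test, Benjamini-Hochberg adjusted p = 0.0526), although the last was called with no filter (-0.71) and without macrophage 14 d replicate 1 (-0.6) or 2 (-0.64) or macrophage 3 d replicate 1 (-0.6), 2 (-0.68) or 3 (-0.72). At 14 d Tgfbi was lower in macrophages than in monocytes by a log2 difference of -2.1 ± 0.18 (edgeR quasi-likelihood test, Benjamini-Hochberg adjusted p = 3.24e-10), 696 ± 150 against 2970 ± 207 CPM on the joint scale and without overlap. The 14 d response differed between the cell types by -1.67 ± 0.23 (edgeR quasi-likelihood test, Benjamini-Hochberg adjusted p = 1.13e-05).

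The 3 platelet-derived growth factor genes encode chains that act through receptors on mesenchymal cells. Pdgfa (ENSMUSG00000025856, chr5:138976014-138997370, - strand) shares 813 exonic bases with the antisense gene 6330403L08Rik, and the sources used here do not say whether counting used strand, so reads of the 2 genes cannot be told apart there. Pdgfa CPM in monocytes was 0.0829, 0.753, 0.442 and 0.448 in controls (2, 14, 11 and 11 counts), 2.48, 1.21, 4.78 and 3.43 at 3 d, and 4.59, 18.6, 17.7 and 14.4 at 14 d. Pdgfa CPM in macrophages was 1.16, 1.6, 0.459 and 0.398 in controls, 2.22, 1.24 and 2.61 at 3 d, and 15.3, 5.17 and 16.9 at 14 d. Every injured monocyte sample exceeded every control, every macrophage 14 d sample exceeded every other macrophage sample, and monocyte 14 d replicate 1 and macrophage 14 d replicate 2 were the lowest of their groups. Control monocyte replicate 1 was under the floor of 3 counts.

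Pdgfa rose in monocytes by 2.79 ± 0.58 log2 units at 3 d (edgeR quasi-likelihood test, Benjamini-Hochberg adjusted p = 0.00209) and by 5.01 ± 0.62 at 14 d (edgeR quasi-likelihood test, Benjamini-Hochberg adjusted p = 0.000146), in 4 of 4 samples at each time. The 14 d level exceeded that at 3 d by 2.22 ± 0.52 (edgeR quasi-likelihood test, Benjamini-Hochberg adjusted p = 0.00486), with 3 of 4 samples above every 3 d sample. In macrophages Pdgfa rose at 14 d by 3.78 ± 0.49 over control (edgeR quasi-likelihood test, Benjamini-Hochberg adjusted p = 1.78e-05) and by 2.62 ± 0.51 over 3 d (edgeR quasi-likelihood test, Benjamini-Hochberg adjusted p = 0.00074), in 3 of 3 samples, and at 3 d the log2 fold change was 1.16 ± 0.52 (edgeR quasi-likelihood test, Benjamini-Hochberg adjusted p = 0.325). Receptor genes give a rate of background counts per kilobase, a description chosen after the values were seen. This rate is in CPM of library size, whereas the member means set beside it are TMM scaled. Multiplied by the length of Pdgfa it came to 0.455 CPM in monocytes at 3 d, beside a mean of 2.98 for Pdgfa, and 0.591 CPM in macrophages at 14 d, beside 12.4. For monocytes at 3 d the same product was 0.608 CPM for Pdgfb beside a mean of 1.46, 1.45 for Igf1 beside 8.37, and 0.706 for Hbegf beside 18.9. For Pdgfc it exceeded the mean, 0.743 beside 0.306, so the product is not a level that holds for every gene. Macrophages and monocytes did not differ beyond the threshold in Pdgfa at control (log2 0.69 ± 0.62), 3 d (-1.1 ± 0.58) or 14 d (-0.85 ± 0.54; edgeR quasi-likelihood test, Benjamini-Hochberg adjusted p = 0.386, 0.0992 and 0.171), and the sign at 14 d flipped under library size. Without monocyte 3 d replicate 2 the 3 d difference was called (-1.36), with the block by description number those at 14 d (-1.28) and between the 14 d responses (-1.94) were. The interval at 14 d ran from -1.91 to 0.21.

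Pdgfb (ENSMUSG00000000489, chr15:79995874-80014977, - strand) was the 1 ligand with its highest mean in control monocytes. Pdgfb CPM in monocytes was 4.97, 2.64, 10.2 and 11.6 in controls, 0.691, 1.84, 1.56 and 1.74 at 3 d, and 1.16, 0.394, 2.02 and 4.07 at 14 d. Pdgfb CPM in macrophages was 3.15, 2.66, 6.62 and 3.05 in controls, 3.8, 6.13 and 3.44 at 3 d, and 8.07, 4.79 and 5.24 at 14 d. Every monocyte 3 d sample was below every control, 1 of 4 monocyte 14 d samples was not, and the macrophage groups overlapped.

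Pdgfb fell by 2.34 ± 0.62 log2 units in monocytes at 3 d (edgeR quasi-likelihood test, Benjamini-Hochberg adjusted p = 0.00658, 4 of 4 samples below every control). At 14 d the fold change was -1.94 ± 0.6 and not called (edgeR quasi-likelihood test, Benjamini-Hochberg adjusted p = 0.0626), although DESeq2 (-1.93), the stricter filter (-1.95), the block by replicate number (-2.04) and fits without monocyte 14 d replicate 4 (-2.65) or monocyte control replicate 2 (-2.21) called it. In macrophages it was not called at any time (log2 0.2 ± 0.36 at 3 d and 0.64 ± 0.36 at 14 d against control), but library size (1.08), the stricter filter (1.02), TMM factors from abundant genes (1.2) and the fit without macrophage control replicate 3 (1.03) called it at 14 d. Control macrophages were lower than control monocytes by a log2 difference of -1.28 ± 0.51 (edgeR quasi-likelihood test, Benjamini-Hochberg adjusted p = 0.0411), with overlapping samples. That call was lost under library size (-0.89), with no filter (-1.12), with TMM factors from abundant genes (-0.97), with the block by description number (-1.17), and without monocyte control replicate 3 or 4, macrophage control replicate 1, 2 or 4, or macrophage 3 d replicate 1, 2 or 3 (-1.19 to -0.96). At 3 d (1.07 ± 0.56) and 14 d (0.94 ± 0.56) Pdgfb was not called between the cell types (edgeR quasi-likelihood test, Benjamini-Hochberg adjusted p = 0.096 and 0.143), though at 3 d every macrophage sample exceeded every monocyte sample. It was called at 3 d with no filter (1.37), in a fit of the 2 groups alone (1.43), with the block by replicate number (1.35) and without macrophage 3 d replicate 1 (1.44) or 3 (1.58) or monocyte 14 d replicate 4 (1.35). At 14 d it was called under library size (2.06), TMM factors from abundant genes (2.08), DESeq2 (1.35), the stricter filter (1.62), no filter (1.16) and the block by replicate number (1.42), and without macrophage 3 d replicate 1, 2 or 3 (1.19 each) or monocyte 14 d replicate 4 (1.86). The response differed between the cell types by 2.35 ± 0.76 at 3 d (edgeR quasi-likelihood test, Benjamini-Hochberg adjusted p = 0.0335) and 2.22 ± 0.76 at 14 d (edgeR quasi-likelihood test, Benjamini-Hochberg adjusted p = 0.0246). The first of these was lost under the stricter filter (2.18), TMM factors from abundant genes (2.06), the block by description number (2.33) and without macrophage 3 d replicate 2, macrophage control replicate 1, 2 or 4, monocyte 3 d replicate 1 or 3, or monocyte control replicate 3 or 4 (2.02 to 2.38). The second was lost without macrophage 14 d replicate 1 (1.93).

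Pdgfc (ENSMUSG00000028019, chr3:81036416-81214040, + strand) encodes a chain that is secreted with an inhibitory domain and needs cleavage to act, and 147 of its exonic bases overlap the antisense gene Gm16000. Pdgfc CPM in macrophages was 44.6, 40.5, 45.7 and 45.5 in controls, 25.7, 41.4 and 20.9 at 3 d, and 25.6, 21.2 and 27.7 at 14 d. Pdgfc CPM in monocytes was 0.166, 0.377, 3.3 and 2.56 in controls (4, 7, 82 and 63 counts), 0.284, 0.18, 0.43 and 0.329 at 3 d (7, 4, 8 and 7 counts), and 2.74, 4.93, 4.26 and 2.62 at 14 d. Every macrophage sample was above every monocyte sample. Control monocytes fell into 2 low and 2 high samples, and the 3 d monocyte values lay near the floor, where the receptor rate over the length of Pdgfc comes to 0.743 CPM beside its mean of 0.306.

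Pdgfc was higher in macrophages than in monocytes by log2 differences of 4.39 ± 0.54 at control, 6.02 ± 0.64 at 3 d and 2.07 ± 0.52 at 14 d, without overlap at any time (edgeR quasi-likelihood test, Benjamini-Hochberg adjusted p = 7.32e-07, 1.55e-07 and 0.00173). Within macrophages it fell by 0.83 ± 0.2 log2 units at 14 d (edgeR quasi-likelihood test, Benjamini-Hochberg adjusted p = 0.00193, 3 of 3 samples), a call lost under library size (-0.38), the stricter filter (-0.44) and TMM factors from abundant genes (-0.26). At 3 d the fold change was -0.59 ± 0.2 (edgeR quasi-likelihood test, Benjamini-Hochberg adjusted p = 0.166). In monocytes it fell by 2.39 ± 0.75 at 3 d (edgeR quasi-likelihood test, Benjamini-Hochberg adjusted p = 0.0159), where 1 of 4 controls (0.377 CPM) lay within the 3 d range and 1 (0.166) below it, and the call was lost under library size (-1.92), TMM factors from abundant genes (-1.88) and without monocyte control replicate 3 (-1.81). From 3 d to 14 d it rose by 3.56 ± 0.77 (edgeR quasi-likelihood test, Benjamini-Hochberg adjusted p = 0.00322, 4 of 4 samples). The 14 d response was more negative in macrophages by -2.32 ± 0.72 (edgeR quasi-likelihood test, Benjamini-Hochberg adjusted p = 0.0176), which was not called under library size (-1.63), the stricter filter (-1.73) or TMM factors from abundant genes (-1.52). At 3 d the responses were not called different (1.64 ± 0.8, edgeR quasi-likelihood test, Benjamini-Hochberg adjusted p = 0.15), except without monocyte control replicate 1 (2.02).

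Igf1 (ENSMUSG00000020053, chr10:87858265-87937042, + strand) encodes insulin-like growth factor 1, a survival and growth signal for fibroblasts. Igf1 CPM in monocytes was 1.95, 2.53, 5.31 and 2.07 in controls, 7.96, 3.37, 15.5 and 6.63 at 3 d, and 42, 84.9, 124 and 105 at 14 d. Igf1 CPM in macrophages was 16.9, 46.1, 21.7 and 19.6 in controls, 49.7, 24.9 and 80.3 at 3 d, and 93.1, 89.6 and 101 at 14 d. In both cell types every 14 d sample was above all others, and the 3 d samples overlapped the controls.

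Monocyte Igf1 rose by 1.49 ± 0.47 log2 units at 3 d (edgeR quasi-likelihood test, Benjamini-Hochberg adjusted p = 0.0171, 3 of 4 samples above every control) and by 4.9 ± 0.53 at 14 d (edgeR quasi-likelihood test, Benjamini-Hochberg adjusted p = 7.71e-05, 4 of 4). The 3 d call was lost with no filter (1.24) and without monocyte control replicate 1 (1.28). From 3 d to 14 d monocyte Igf1 rose by 3.41 ± 0.49 (edgeR quasi-likelihood test, Benjamini-Hochberg adjusted p = 0.000719, 4 of 4). In macrophages it rose by 1.86 ± 0.42 at 14 d over control (edgeR quasi-likelihood test, Benjamini-Hochberg adjusted p = 0.00332, 3 of 3 samples). At 3 d it was not called (0.98 ± 0.42, edgeR quasi-likelihood test, Benjamini-Hochberg adjusted p = 0.335), nor from 3 d to 14 d (0.88 ± 0.45, edgeR quasi-likelihood test, Benjamini-Hochberg adjusted p = 0.117), although DESeq2 (1), library size (1.32), the stricter filter (1.23), TMM factors from abundant genes (1.37), a fit of the 2 groups alone (0.97) and the fit without macrophage control replicate 2 (0.88) called the last.

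Macrophages were higher in Igf1 than monocytes by log2 differences of 2.75 ± 0.49 at control and 2.09 ± 0.49 at 3 d, without overlap (edgeR quasi-likelihood test, Benjamini-Hochberg adjusted p = 0.000112 and 0.00143). By 14 d the difference was -0.62 ± 0.49 and not called (edgeR quasi-likelihood test, Benjamini-Hochberg adjusted p = 0.272), on joint means of 67.4 ± 6.14 and 103 ± 40.4 CPM, its sign flipped under library size and with TMM factors from abundant genes (0.52), and the block by description number called it (-0.84). The 14 d response was larger in monocytes, a difference of -3.37 ± 0.7 between macrophages and monocytes (edgeR quasi-likelihood test, Benjamini-Hochberg adjusted p = 0.00129), and this call held under every alternative run.

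Hbegf (ENSMUSG00000024486, on chromosome 18) encodes a membrane-anchored ligand of the EGF receptor that is released by shedding. Hbegf CPM in monocytes was 2.15, 3.82, 1.53 and 1.99 in controls, 5.85, 2.74, 32.6 and 34.4 at 3 d, and 43.6, 53.1, 37 and 54.2 at 14 d. Hbegf CPM in macrophages was 0.616, 1.14, 0.262 and 0.531 in controls (9, 15, 4 and 8 counts), 3.44, 0.854 and 11.4 at 3 d, and 13, 9.2 and 9.13 at 14 d. The 3 d groups were uneven in both cell types, with 2 high and 2 low monocyte samples, and 1 macrophage sample within the range of the controls. All 14 d samples were above all controls.

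Hbegf rose in monocytes by 3 ± 0.69 log2 units at 3 d (edgeR quasi-likelihood test, Benjamini-Hochberg adjusted p = 0.00413, 3 of 4 samples above every control) and by 4.32 ± 0.72 at 14 d (edgeR quasi-likelihood test, Benjamini-Hochberg adjusted p = 0.00236, 4 of 4). Between 3 d and 14 d the difference of 1.31 ± 0.63 was not called (edgeR quasi-likelihood test, Benjamini-Hochberg adjusted p = 0.0961), except without monocyte 3 d replicate 4 (1.8). In macrophages Hbegf rose by 4.03 ± 0.7 at 14 d (edgeR quasi-likelihood test, Benjamini-Hochberg adjusted p = 0.000372, 3 of 3 samples). At 3 d its fold change of 3.01 ± 0.7 was not called (edgeR quasi-likelihood test, Benjamini-Hochberg adjusted p = 0.0622, 2 of 3 samples above every control), and DESeq2 (3.09) and the fit without macrophage 3 d replicate 2 (3.55) called it. Macrophages were lower than monocytes by log2 differences of -2.27 ± 0.86 at control, -2.42 ± 0.79 at 3 d and -2.88 ± 0.8 at 14 d (edgeR quasi-likelihood test, Benjamini-Hochberg adjusted p = 0.0382, 0.0133 and 0.00462), without overlap at control and 14 d. At control the call was lost with the number in the title as a block (-2.32, adjusted p 0.0527 by the edgeR quasi-likelihood test with Benjamini-Hochberg adjustment, over a range of 5.2e-07 to 0.101 for all alternatives). It was kept with the block by description number, which has the same control pairs, and with the title block in a fit of the 2 groups alone. It was also lost under library size (-1.83), no filter (-2.15) and TMM factors from abundant genes (-1.93), and without monocyte control replicate 1, 2 or 4, macrophage control replicate 1, 3 or 4, macrophage 3 d replicate 1 or monocyte 14 d replicate 4 (-2.33 to -1.95). At 3 d it was lost without macrophage 3 d replicate 1 (-2.06) or 2 (-1.74) and in a fit of the 2 groups alone (-2.13). The responses of the cell types were not called different, at 3 d (-0.15 ± 1.28) or 14 d (-0.61 ± 1.18; edgeR quasi-likelihood test, Benjamini-Hochberg adjusted p = 0.962 and 0.71), and these standard errors leave intervals of -2.65 to 2.35 and -2.93 to 1.71.

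Osm (ENSMUSG00000058755, chr11:4236420-4241026, + strand) encodes oncostatin M, which signals through Il6st paired with Osmr or Lifr. Osm CPM in macrophages was 170, 337, 156 and 246 in controls, 220, 329 and 228 at 3 d, and 84, 105 and 63.7 at 14 d. Osm CPM in monocytes was 189, 288, 131 and 198 in controls, 258, 120, 294 and 342 at 3 d, and 207, 248, 342 and 356 at 14 d. The macrophage 14 d samples were below all other macrophage samples, and the monocyte groups overlapped.

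Osm fell in macrophages at 14 d by 1.43 ± 0.27 log2 units from control (edgeR quasi-likelihood test, Benjamini-Hochberg adjusted p = 0.000503) and by 1.62 ± 0.28 from 3 d (edgeR quasi-likelihood test, Benjamini-Hochberg adjusted p = 0.000547), in 3 of 3 samples. In monocytes it was not called at 3 d (0.33 ± 0.3, edgeR quasi-likelihood test, Benjamini-Hochberg adjusted p = 0.358), where library size (0.83) and TMM factors from abundant genes (0.87) called it higher, or at 14 d (0.52 ± 0.3, edgeR quasi-likelihood test, Benjamini-Hochberg adjusted p = 0.339). The cell types were not called different at control (-0.2 ± 0.29) or 3 d (-0.52 ± 0.32; edgeR quasi-likelihood test, Benjamini-Hochberg adjusted p = 0.605 and 0.155), apart from the 3 d fit without monocyte 3 d replicate 2 (-0.76), and the sign at control flipped under library size. At 14 d Osm was lower in macrophages by a log2 difference of -2.49 ± 0.35 (edgeR quasi-likelihood test, Benjamini-Hochberg adjusted p = 2.43e-06, no overlap), 59.7 ± 12.8 against 335 ± 82.9 CPM on the joint scale. Its 14 d response differed between the cell types by -2.28 ± 0.44 (edgeR quasi-likelihood test, Benjamini-Hochberg adjusted p = 0.000529).

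**Figure D3:**
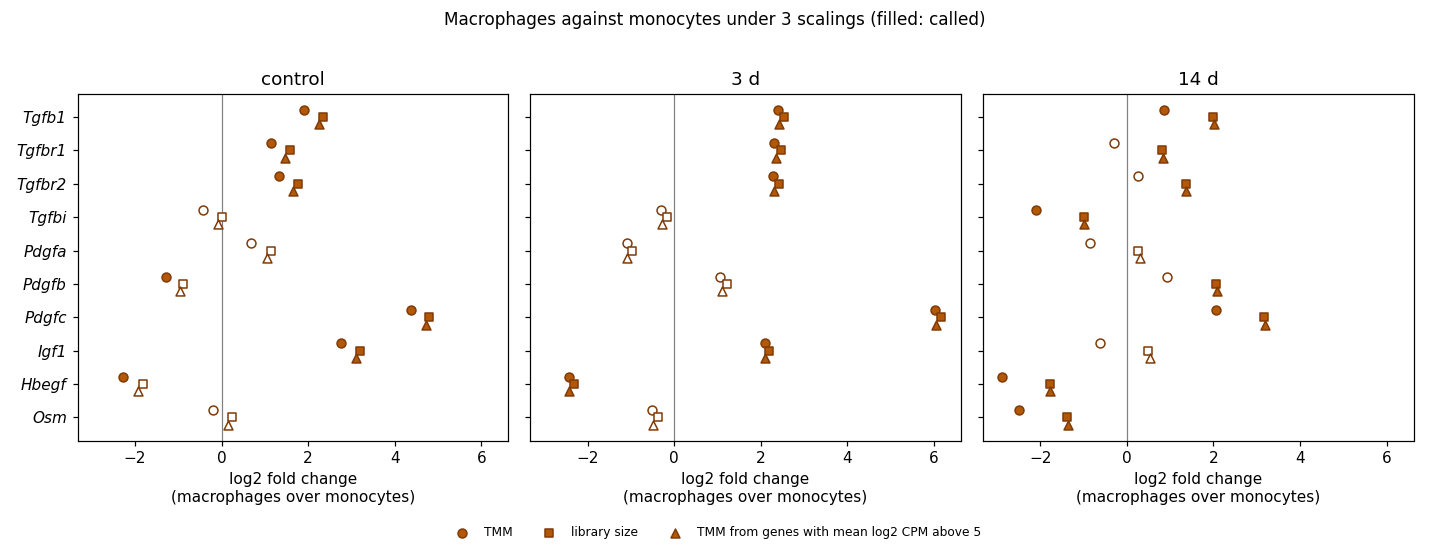
Log2 fold change of macrophages over monocytes for each of the 10 genes at control, 3 d and 14 d under 3 scalings (circles TMM, squares library size, triangles TMM factors from abundant genes, those over 5 in average log2 CPM), with called genes filled. At 14 d library size places every gene further to the right so that Tgfbr1 moves from -0.29 to 0.82, whereas Tgfb1 and Pdgfc stay above 0 and Tgfbi, Hbegf and Osm below 0.

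The order of the 6 groups was different for different members. For Tgfb1, Tgfbr1, Tgfbr2 and Pdgfc the highest joint mean was that of control macrophages, and for Tgfbi, Pdgfa, Igf1, Hbegf and Osm that of monocytes at 14 d. For Pdgfa and Igf1 this place depended on the scaling. Their log2 differences between macrophages and monocytes at 14 d, -0.85 and -0.62, ran up to 0.301 and 0.524 over the alternatives. For Tgfbr1 the order ran from control macrophages (336 ± 28.2 CPM) through macrophages at 3 d (274 ± 124), control monocytes (153 ± 35.2), monocytes at 14 d (115 ± 40.9) and macrophages at 14 d (94.3 ± 16.4) to monocytes at 3 d (55.1 ± 11.2). The neighbours overlapped except the second with the third and the last with the one before. The order of the groups at 14 d turned with the scaling. There the log2 difference of macrophages from monocytes was -0.29, but 0.82 under library size and 0.84 with TMM factors from abundant genes. Igf1 ran from monocytes at 14 d (103 ± 40.4) and macrophages at 14 d (67.4 ± 6.14) through macrophages at 3 d (44.6 ± 24.4) and control (22.6 ± 10.9) to monocytes at 3 d (10.5 ± 6.33) and control (3.33 ± 1.74). On the joint scale each neighbour overlapped the next. On the scale of macrophages alone the 14 d samples (89.6 CPM or more) lay above the 3 d samples (80.3 or less). Hbegf ran from monocytes at 14 d (54.7 ± 9.39) and 3 d (23.7 ± 21.2) through macrophages at 14 d (7.44 ± 1.62) and 3 d (4.53 ± 4.77) to control monocytes (2.68 ± 1.14) and control macrophages (0.549 ± 0.3). Of these, only the last 2 neighbours did not overlap on the joint scale. On the scale of monocytes alone the 14 d samples (37 CPM or more) lay above the 3 d samples (34.4 or less). Pdgfc (38.6 ± 3.34, 25.2 ± 8.85 and 17.7 ± 2.93 CPM in control, 3 d and 14 d macrophages against 4.23 ± 1.29 in monocytes at 14 d) separated the cell types completely.

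Beyond the 10 members, 111 genes of the same pathways were listed in 9 groups, and 98 to 106 of them were tested per comparison. In monocytes 30 of 98 rose and 25 fell at 3 d (36.8% of all genes were called higher and 14.4% lower), 13 rose and 7 fell at 14 d (3.22% and 5.34%), and 25 were higher and 27 lower at 14 d than at 3 d (12% and 34.5%). In macrophages 6 of 102 rose at 3 d (1.05%), 50 rose and 20 fell at 14 d (39.4% and 22.9%), and 41 were higher and 18 lower at 14 d than at 3 d (36.3% and 20%). Their median log2 fold changes against control were 0.13 and 0.23 in monocytes and 0.17 and 0.67 in macrophages at 3 d and 14 d. Macrophages exceeded monocytes in 43 of 106 at control, 34 at 3 d and 48 at 14 d (24.5%, 20.4% and 40.4% of all genes), and were lower in 32, 37 and 26 (19.7%, 42.7% and 23.3%). The response differed between the cell types in 27 of 106 at 3 d (11 more positive in macrophages and 16 more negative, beside 3.51% and 15.2% of all genes) and in 46 at 14 d (22 and 24, beside 16.9% and 19.9%). Under the stricter filter, which tests fewer genes, the called pathway genes went from 55 to 12 for monocytes at 3 d, 52 to 16 for 14 d against 3 d, 70 to 45 for macrophages at 14 d and 59 to 35 for 14 d against 3 d. Between the cell types they went from 71 to 46 at 3 d and 74 to 47 at 14 d, and for the response differences from 27 to 11 and 46 to 25. All called genes also fell in number under that filter. In the same order, they went from 11438 to 1468, 10395 to 1557, 13051 to 5018 and 11806 to 4236 within the cell types. Between the cell types the change was from 16830 to 7050 and 17006 to 7447, and for the response differences from 4995 to 1211 and 9829 to 3736. For macrophages at 3 d the 6 became 10 with DESeq2 and 3 with the block by replicate number. Over all genes 267 became 763 and 133.

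Among genes that hold TGF-beta latent or release it is thrombospondin 1 (Thbs1), which can activate the latent complex. Thbs1 averaged 1120 CPM in control monocytes and 336 at 3 d, a log2 fold change of -1.74 ± 0.42 (edgeR quasi-likelihood test, Benjamini-Hochberg adjusted p = 0.00477), and 15.2 CPM in control macrophages and 296 at 14 d, a rise of 4.28 ± 0.37 (edgeR quasi-likelihood test, Benjamini-Hochberg adjusted p = 7.09e-06), in every sample each time. It was not called in monocytes at 14 d (-0.83 ± 0.41) or in macrophages at 3 d (0.8 ± 0.35). Nrros, which tethers latent TGF-beta to myeloid cells, was lower in macrophages than in monocytes at 14 d, with joint means of 52.6 and 691 CPM (log2 difference -3.72 ± 0.19), and fell in monocytes at 14 d from 992 to 593 CPM. The protease gene Furin rose in monocytes from 38.1 CPM at 3 d to 140 at 14 d. Integrin beta 5 (Itgb5) fell in monocytes from 40.6 to 15.3 CPM at 3 d and stood at 51 at 14 d, where macrophages exceeded monocytes (179 against 59.3 CPM on the joint scale). Of this list 7 rose and 3 fell of 13 tested in monocytes at 3 d, and 7 rose and 2 fell of 14 in macrophages at 14 d (36.8% and 39.4% of all genes were called higher).

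In the list of SMAD proteins and regulators, 6 of 14 genes fell in monocytes at 3 d (14.4% of all genes) and 8 were not called, with Smad3, the transducer of TGF-beta signals, at 32.4 CPM in controls, 13.3 at 3 d and 12 at 14 d (log2 fold changes -1.28 ± 0.31 and -1.43 ± 0.31, edgeR quasi-likelihood test, Benjamini-Hochberg adjusted p = 0.00438 and 0.0097, no overlap). Smurf2, a ubiquitin ligase that limits the pathway, fell from 27.5 to 11.6 CPM at 3 d. In macrophages at 14 d 5 of 14 rose and 5 fell (39.4% and 22.9% of all genes), among them Smad1 (44.3 to 14.2 CPM, log2 fold change -1.62 ± 0.23). Smad3 in macrophages rose from 1.99 CPM in controls to 16.7 at 14 d (3.06 ± 0.33). On the joint scale macrophages had 1.73 CPM of Smad3 against 36.7 in monocytes at control, and 12 against 14 at 14 d. Control macrophages had 58.9 CPM of Pmepa1, a TGF-beta induced inhibitor of the pathway, against 1.51 in control monocytes. Of the other receptors, Acvr1b fell in macrophages from 102 to 32.2 CPM at 14 d, when 2 of 6 rose and 3 fell (39.4% and 22.9% of all genes), and 3 of 6 fell in monocytes at 3 d (14.4%).

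TGF-beta induced targets did not share 1 direction. Col1a1 and Col3a1, fibroblast collagens that are also on the fibroblast marker list, rose in macrophages at 14 d from 1.33 to 24.1 and from 12.3 to 182 CPM (log2 4.16 ± 0.39 and 3.88 ± 0.41), beside the rise of the whole fibroblast list. In monocytes fibronectin (Fn1) rose from 1210 CPM at 3 d to 5240 at 14 d and Id2 from 139 to 609, and Id3 fell from 50.2 CPM in controls to 16.9 at 3 d. Of this list 6 rose and 3 fell of 12 tested in macrophages at 14 d (39.4% and 22.9% of all genes), and 1 rose and 3 fell of 10 tested in monocytes at 3 d (36.8% and 14.4%).

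The receptor gene Igf1r rose in monocytes at 3 d from 5.21 to 24.1 CPM (log2 2.21 ± 0.2, edgeR quasi-likelihood test, Benjamini-Hochberg adjusted p = 0.000128, no overlap) and fell to 9.98 CPM at 14 d, and in macrophages rose at 3 d from 3.33 to 8.54 CPM (1.35 ± 0.22, edgeR quasi-likelihood test, Benjamini-Hochberg adjusted p = 0.00682, no overlap). At 14 d macrophages reached 38.1 CPM of Igf1r (3.51 ± 0.22 over control). Igf2r, which clears IGF-2 and carries lysosomal enzymes, rose at 3 d in macrophages (4.9 to 18.5 CPM) and at 14 d in monocytes (4.7 to 23.7 CPM). Igfbp6, a binding protein, rose in monocytes at 14 d from 3.54 to 19.2 CPM, and Htra1, a secreted protease, in macrophages from 2.12 to 32.1 CPM. Of the IGF list 8 rose and 1 fell of 10 tested in macrophages at 14 d, 5 rose and 1 fell in monocytes at 3 d, and 3 rose at 14 d (39.4%, 36.8% and 3.22% of all genes were called higher). In the PDGF list 4 rose and 1 fell of 5 in monocytes at 3 d, and 3 rose and 1 fell of 4 tested in macrophages at 14 d (36.8% and 39.4% of all genes were called higher, 14.4% and 22.9% lower), the groups with the highest receptor gene background.

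In the EGF family Nrg1 rose in monocytes from 4.68 CPM in controls to 16.1 at 3 d and 36.4 at 14 d (log2 1.78 ± 0.28 and 2.96 ± 0.29, edgeR quasi-likelihood test, Benjamini-Hochberg adjusted p = 0.000634 and 3.11e-05, no overlap). On the joint scale it stood at 3.86 CPM in macrophages at 14 d against 42.4 in monocytes, whereas Nrg4 was higher in macrophages (12.8 against 2.55). In the oncostatin M list, Socs3, a feedback inhibitor that such cytokines induce, rose in monocytes at 14 d from 171 to 636 CPM (1.89 ± 0.34), and the shared receptor subunit gene Il6st fell in macrophages from 186 to 48.3 CPM (-1.94 ± 0.19). Il6 rose in macrophages at 3 d from 5.11 to 38.7 CPM (2.93 ± 0.45, edgeR quasi-likelihood test, Benjamini-Hochberg adjusted p = 0.012, no overlap) and stood at 4.7 at 14 d. Lifr was lower in macrophages than in monocytes at control, 0.953 against 61 CPM on the joint scale.

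Csf1, which encodes a growth factor for macrophages, is on the list of other growth factors. It rose in macrophages from 3.55 CPM in controls to 38.5 at 3 d and 108 at 14 d (log2 3.44 ± 0.49 and 4.94 ± 0.51, edgeR quasi-likelihood test, Benjamini-Hochberg adjusted p = 0.0135 and 4.32e-05) and in monocytes from 4.27 to 67.1 CPM at 14 d (3.97 ± 0.64, edgeR quasi-likelihood test, Benjamini-Hochberg adjusted p = 0.00171), without overlap. Hgf rose in macrophages at 3 d from 7.67 to 15.9 CPM. Vegfa was higher in macrophages at 14 d than at 3 d, 27.5 against 3.49 CPM, and Gdf15 lower, 17.3 against 90.6 CPM. Vegfb was higher in macrophages than in monocytes at every time, with joint means of 20.8 against 0.58 CPM at control. Of this list 9 rose and 1 fell of 16 tested in macrophages at 14 d, and 6 rose and 2 fell of 15 in monocytes at 3 d (39.4% and 36.8% of all genes were called higher).

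For each member the 3 genes nearest in pattern were found by the root mean square difference between profiles of mean log2 CPM, each profile centred over its 6 group means, among 8626 genes with a mean log2 CPM above 3. Tgfbr2 had the closest neighbour, Slc29a1, at 0.034 log2 units, and Dnajb13 was the nearest to Tgfbr1 (0.056) and also among the 3 nearest to Tgfbr2 (0.204). Nearest to Tgfb1 was Cic (0.111), to Tgfbi Atp6v0c (0.107) and to Osm 0610009B22Rik (0.116). The low members had looser neighbours, with Mmp14 for Pdgfa (0.648), Dusp16 for Pdgfb (0.31), Rhoc for Pdgfc (0.321), Lrg1 for Igf1 (0.561) and Sdc4 for Hbegf (0.54). With 6 group means this is a description of likeness and not a test.

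Promoter sequences are given for the receptors Tgfbr1 and Tgfbr2 and for the ligands Pdgfa and Igf1, which rose in both cell types. Hbegf, which also rose in both, was left out of the promoter search. Entries for 7 of the 10 members were found in the RefSeq promoter table (build GRCm38.p6), which holds 250 bases before to 50 after a start. Motifs were searched on both strands and their hits are in capitals, and the motifs were the AP-1 site TGANTCA, the SMAD box CAGAC, the PU.1 site GAGGAAG, the GC box GGGCGG and the TATA box TATAAA. Of 32851 promoters of 300 bases these were in 7.81%, 49.6%, 13.6%, 35.7% and 13.6%. Tgfbr1 and Pdgfa have 2 entries each, and the entry nearest the annotated gene start is given. The Tgfbr1 window (chr4:47352972-47353271, + strand) holds 2 GC boxes, and the Tgfbr2 window (chr9:116175314-116175613, - strand) 1 SMAD box and 1 PU.1 site. The Pdgfa window (chr5:138994895-138995194, - strand), 2426 bases from the annotated gene start, holds 2 GC boxes, and the Igf1 window (chr10:87860861-87861160, + strand), 2846 bases from its start, 1 AP-1 site and 1 PU.1 site. A match is a run of letters, not a shown binding site.
Tgfbr1: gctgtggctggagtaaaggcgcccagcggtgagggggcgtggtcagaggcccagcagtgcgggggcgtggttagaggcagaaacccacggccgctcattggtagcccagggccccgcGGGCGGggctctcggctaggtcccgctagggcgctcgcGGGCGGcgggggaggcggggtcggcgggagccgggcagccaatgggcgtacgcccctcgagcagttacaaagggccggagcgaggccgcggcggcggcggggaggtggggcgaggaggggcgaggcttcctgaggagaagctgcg
Tgfbr2: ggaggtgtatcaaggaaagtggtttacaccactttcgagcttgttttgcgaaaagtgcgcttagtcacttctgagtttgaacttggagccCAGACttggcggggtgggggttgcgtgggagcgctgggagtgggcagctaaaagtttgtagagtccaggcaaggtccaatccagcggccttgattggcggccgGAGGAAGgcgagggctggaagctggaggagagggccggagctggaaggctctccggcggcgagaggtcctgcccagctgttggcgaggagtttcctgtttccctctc
Pdgfa: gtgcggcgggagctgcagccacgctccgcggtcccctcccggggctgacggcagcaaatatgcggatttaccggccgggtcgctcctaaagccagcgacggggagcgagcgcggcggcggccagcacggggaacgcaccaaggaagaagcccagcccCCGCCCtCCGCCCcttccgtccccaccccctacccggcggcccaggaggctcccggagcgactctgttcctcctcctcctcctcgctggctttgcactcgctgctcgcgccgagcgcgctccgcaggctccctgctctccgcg
Igf1: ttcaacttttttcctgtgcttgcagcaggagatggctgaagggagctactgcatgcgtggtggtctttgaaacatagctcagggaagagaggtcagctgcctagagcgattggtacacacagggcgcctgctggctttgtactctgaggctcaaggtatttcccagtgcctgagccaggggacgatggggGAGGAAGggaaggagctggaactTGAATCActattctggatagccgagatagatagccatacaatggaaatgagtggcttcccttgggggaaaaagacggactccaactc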

How the data were processed

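RNA counts per gene were used for 12 monocyte and 10 macrophage samples in 6 groups. The authors deposited raw counts per gene in 1 table per cell type, made by their notes with STAR (2.7.2c or 2.7.3a) and featureCounts 1.6.3 on GRCm38. The analysis ran under R 4.3.3, using edgeR 4.0.16 (TMM scaling, filterByExpr, robust quasi-likelihood test, Benjamini-Hochberg adjustment over all genes tested), limma 3.58.1 and DESeq2 1.42.0 as the second tool. Each cell type was fitted alone for changes over time, and all 22 samples jointly over the 31116 shared genes for 11 comparisons in all, with a gene called at an adjusted p under 0.05 and a fold above 1.5. The pipeline was tested on simulated data with few changed genes, in both directions, and no added background. That test does not bear on the choice of scaling. Levels are CPM, and log2 CPM used a prior count of 2. The SE of a log2 fold change was taken as its absolute value over the square root of the quasi-likelihood F. Intervals were set from that SE with a normal quantile, which is approximate for groups this small.

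Total counts were 15451460 to 28789639 per monocyte library and 4610720 to 17074863 per macrophage library. A count of 3 gave floors of 0.121 to 0.161 and 0.197 to 0.507 CPM, which cover counting error only. The p-values measure spread between samples. Named genes are all members, up to 5 called genes per comparison and direction from the pathway lists with the largest log2 fold change, average log2 CPM over 3 and groups that do not overlap, the 3 nearest genes per member, and the top gene of each marker list. The members and lists were chosen with earlier results of these data known.

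Alternatives were DESeq2, library size scaling, no filter, a stricter filter (average log2 CPM over 1), TMM factors from abundant genes (average over 5), a replicate block by the number in the title or in the description, a fit of only the 2 groups compared, and leaving out each library in turn. Whether control monocytes and macrophages with the same number in the title are pairs was checked by correlating residuals, which gave r from 0.14 to 0.24 in 4 pairs, a mean of 0.18 against -0.06 for different numbers. Control and 14 d monocytes with the same title number gave r from 0.09 to 0.52, a mean of 0.28 against -0.09, and no other pair of groups had a mean above 0.07. The labels do not state a pairing, so it is only an alternative. No sample was left out.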

Additional observations from a re-analysis of the deposited data

Results flagged for a closer look

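Of 40 groups of 4 samples tested for a sample far from the others, 2 had one, where chance gives about 1 in 20 groups. Pdgfb was 6.62 CPM in control macrophage replicate 3, against 3.15, 2.66 and 3.05 in the other controls. Igf1 was 46.1 CPM in control macrophage replicate 2, against 16.9, 21.7 and 19.6. The difference between macrophages and monocytes in the log2 response at 3 d was called for Tgfbr1 (1.17), Tgfbr2 (0.95) and Pdgfb (2.35). At 14 d it was called for Tgfbi (-1.67), Tgfbr1 (-1.43), Tgfbr2 (-1.07), Pdgfb (2.22), Pdgfc (-2.32), Igf1 (-3.37) and Osm (-2.28). All 3 calls at 3 d were lost with the block by description number, and those of Tgfbr1, Tgfbr2 and Pdgfc at 14 d with library size scaling. The cause of each was not tested.

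Limits apply to all of these. Sex and the 14 d time point cannot be told apart, nor can cell type and processing run. Monocytes at 3 d and macrophages at 14 d carry more receptor gene counts, and macrophages at 14 d more RNA of fibroblast, neutrophil and eosinophil markers. There 3 of 4 platelet, 4 of 6 endothelial and 3 of 5 dendritic cell markers were called higher, beside 39.4% of all genes, and the endothelial sum was lower (63.7 against 109 CPM). Groups hold 3 or 4 samples. RNA levels do not measure secreted or active protein.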

How the results depend on the processing

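The number of members called moved in these cases, and apart from members that a filter removed the cause was not tested. For monocytes at 14 d against 3 d, 7 became 4 with the stricter filter. Tgfb1 and Tgfbr2 lost their calls there. Pdgfc, with an average log2 CPM of 0.89, was under the cut of 1 and so was not tested. For macrophages at 3 d against control, 0 became 1 with DESeq2 and 4 without macrophage 3 d replicate 2. For macrophages at 14 d against 3 d, 4 became 7 without macrophage 3 d replicate 3. For macrophages against monocytes at 14 d, 5 became 8 with library size scaling and 8 with TMM factors from abundant genes. For the difference between cell types in the 3 d response, 3 became 1 with the stricter filter, 1 with TMM factors from abundant genes, 0 with the replicate block by description number, and 1 without monocyte 3 d replicate 3, macrophage control replicate 2 or macrophage 3 d replicate 2. For the difference in the 14 d response, 7 became 4 with library size scaling, 4 with the stricter filter and 4 with TMM factors from abundant genes.

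Counts of members called for monocytes at 3 d against control (6 to 8 over libraries left out), monocytes at 14 d against control (5 to 6), macrophages at 14 d against control (8 to 8) and macrophages against monocytes at control (5 to 7) and at 3 d (5 to 8) stayed within 1.5 times the count given, the rule for the same count, under every alternative. Within that rule macrophages against monocytes at control went from 7 to 5 with library size scaling, no filter and TMM factors from abundant genes, where the members higher in monocytes went from 2 to 0.

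For single genes, 722 of 804 results of the other alternatives were the same, 46 weaker, 34 stronger and 2 reversed, and of 1760 with a library left out 1682 were the same, 47 weaker and 31 stronger. A result was taken as reversed when its sign changed and it was called on either side, so uncalled results that changed sign count as the same, such as Igf1 (-0.62 to 0.52) for macrophages against monocytes at 14 d and Tgfbi (-0.24 to 0.3) for macrophages at 14 d against control, both with TMM factors from abundant genes. Both reversals were Tgfbr1 for macrophages against monocytes at 14 d, from -0.29 to 0.82 with library size scaling and 0.84 with TMM factors from abundant genes, and the cause was not tested. Group mean CPM under library size stayed within 1 SD in 47 of 60 cases.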
